A study of Rattus norvegicus with 10 samples.

Results

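The 10 genes described here encode 6 vascular growth factors and 4 of their receptors: the VEGF family ligands Vegfa, Vegfc and Pgf with the receptors Flt1 and Kdr, the angiopoietins Angpt1 and Angpt2 with the receptor Tek, and apelin (Apln) with its receptor Aplnr. They were chosen by symbol as the genes of these pathways, with earlier results of these data known. Shares of all genes are therefore set beside them only as a description. The members are 10 of the 31580 genes in the tissue count table and of the 39537 features in the nuclear matrices. All 10 were found by symbol in both, and all 10 passed the filter on low counts that left 15216 tissue genes to test. The smallest count of any of the 10 genes in any tissue library was 55.

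The samples came from rat hearts in which the left coronary artery was ligated and reperfused, and all RNA was taken from the area at risk, the muscle that the ligated artery supplies. All rats had the injury, so no group gives an uninjured level. The 4 tissue groups were vehicle at 4 h, BT2 at 4 h, vehicle at 24 h and BT2 at 24 h, with 2 libraries of polyadenylated RNA in each. BT2, a code name, stands for a small molecule. For the tissue libraries neither the dose nor the rats' strain, sex and age nor the time of dosing was stated in the labels. Nuclear RNA at 24 h came from 1 library after vehicle and 1 after BT2 at 100 mg/kg. Hours run from ligation in the titles but from the injury in the design text. No label states if replicates were different rats or pooled tissue, so each p-value measures only the spread between these libraries, which may be technical.

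VEGF ligands bind receptor tyrosine kinases on endothelial cells. Kdr (VEGFR2) carries most of the signal for growth, permeability and survival, while Flt1 (VEGFR1) binds Vegfa and Pgf tightly, signals weakly and in its soluble form acts as a trap. Angpt1, made mainly by cells around the vessel, activates Tek (Tie2) and stabilises the vessel wall, whereas Angpt2, released by endothelial cells, competes with it and loosens the wall. Apelin acts through Aplnr, a G protein-coupled receptor, on vessel growth, vascular tone and cardiac contractility. In the heart, cardiomyocytes are a known source of Vegfa, and oxygen shortage is a known stimulus of Vegfa, Angpt2 and Apln.

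The tissue libraries held 10397310 to 24480984 counted reads, and libraries of the same group correlated across genes at r = 0.981 to 0.99. The 10 cardiomyocyte markers summed to between 27590 and 88880 CPM (counts per 1000000 counts of the library) in each tissue library and none was at 0, so the tissue matched its label. CPM here are scaled by the trimmed mean of M values (TMM), and they are compared between libraries but not between genes, because no gene lengths were used. A gene is called when the edgeR quasi-likelihood test gives a Benjamini-Hochberg adjusted p under 0.05 over all 15216 genes. The 2 BT2 contrasts and the 2 time contrasts share groups, so they are set side by side without any test of their likeness.

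At 4 h, 5 of the 10 genes were called between BT2 and vehicle. The ligands Pgf, Angpt2, Apln and Vegfc fell by 2.03-fold to 5.28-fold, Angpt1 rose 1.82-fold, and no receptor was called. Of all genes tested, 9.73% were called lower and 6.67% higher in that contrast. The median log2 fold change of the 10 genes was -0.30, beside 0 for all genes. At 24 h, 2 of the 10 were called, both higher with BT2: Angpt1, by 3.13-fold, and Vegfa, by 1.47-fold. The share of all genes called higher there was 18.9%, which is close to 2 in 10, and 20.7% were called lower. No member was called lower at 24 h by edgeR. An unadjusted edgeR p under 0.05 was found for 2 of the 10, the same 2 that were called, beside 7452 of the 15216 genes. DESeq2 also called 2 higher and 0 lower, beside 2498 higher and 2950 lower of the 22074 genes in its fit. The median at 24 h was 0.09, beside -0.01 for all genes.

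**Figure D1:**
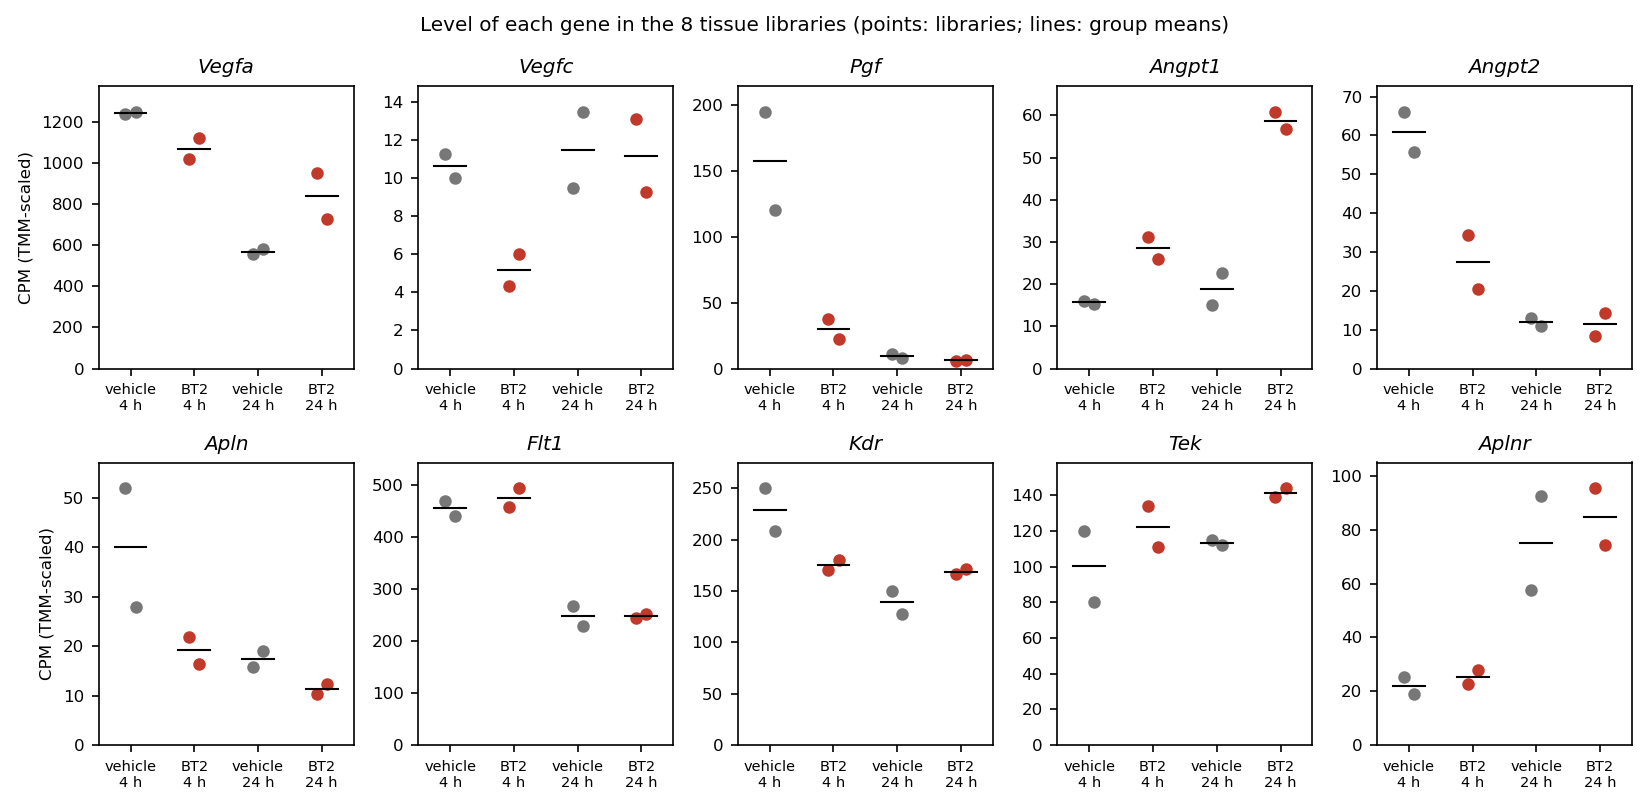
Level of each of the 10 genes in the 8 tissue libraries, in TMM-scaled CPM on axes that start at 0. Points are libraries, lines are the means of the 2 libraries of a group, and each gene has its own axis. Pgf spans from 195 CPM in a vehicle 4 h library to 5.79 CPM in a BT2 24 h library, and Angpt1 stands highest in the 2 BT2 24 h libraries, at 60.9 and 56.7 CPM.

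**Figure D2:**
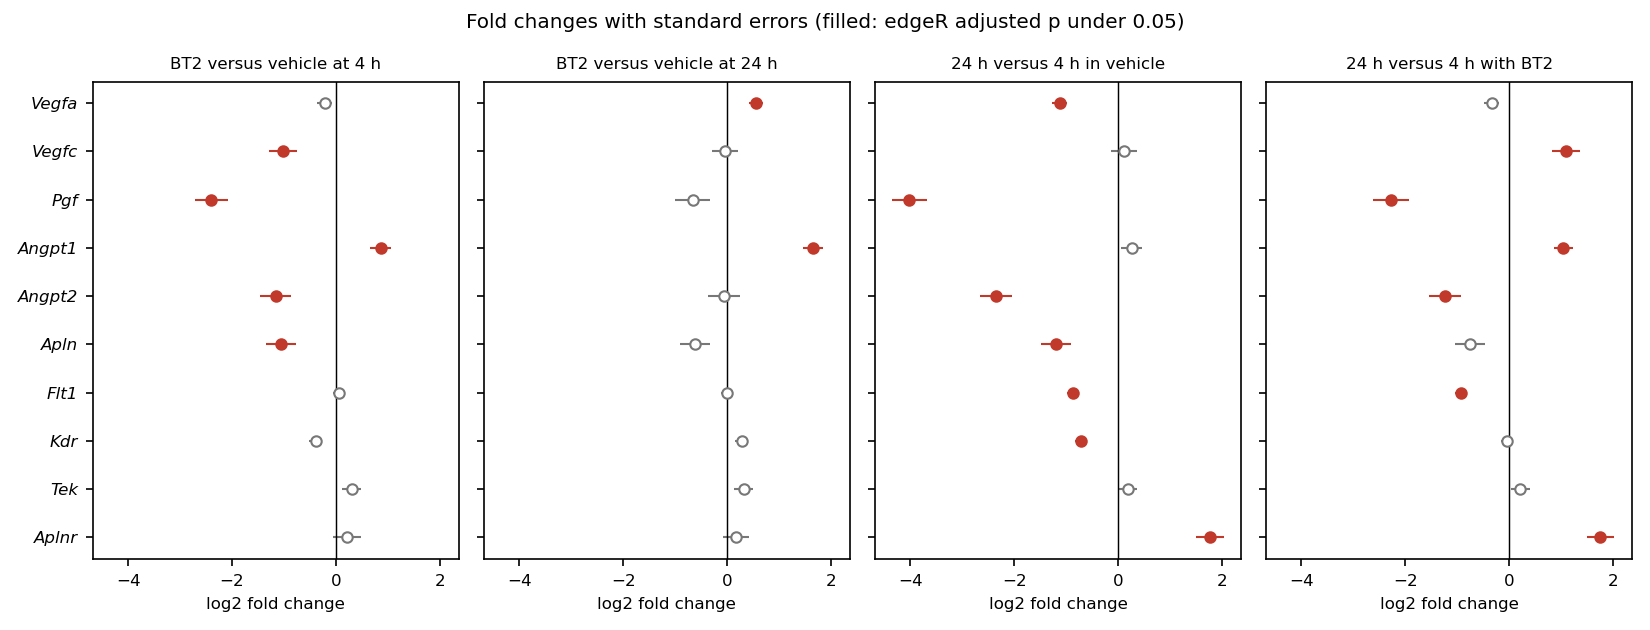
Log2 fold change of each gene with its standard error in the 2 contrasts of BT2 against vehicle and the 2 contrasts of 24 h against 4 h. Filled points have an edgeR adjusted p under 0.05. Pgf at 4 h (-2.40) and Angpt1 at 24 h (1.65) lie farthest from 0 among the effects of BT2.

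Pgf, the placental growth factor that binds Flt1 and not Kdr, had the largest difference of the 10 genes at 4 h. Its level was 195 and 120 CPM in the vehicle 4 h libraries, 37.3 and 22.4 CPM with BT2 at 4 h, 11.3 and 7.87 CPM in vehicle at 24 h, and 5.79 and 6.4 CPM with BT2 at 24 h. Both vehicle libraries stood above both BT2 libraries at each time, and all 4 libraries of 24 h stood below all 4 of 4 h. At 4 h it fell 5.28-fold with BT2 (log2 fold change -2.40 ± 0.32 SE, edgeR adjusted p = 0.0109). The call was lost without BT2 4 h replicate 2, where the adjusted p was 0.0575, and held in the other 9 alternatives, with log2 fold changes from -2.81 to -2.01 over all 10. At 24 h the difference was -0.66 ± 0.34 and was not called (edgeR adjusted p = 0.159). Between 4 h and 24 h Pgf fell 16.3-fold in vehicle (-4.02 ± 0.34, edgeR adjusted p = 0.000164) and 4.87-fold with BT2 (-2.28 ± 0.34, edgeR adjusted p = 0.00602). In all of these tissue values, fewer cells of a type and less RNA per cell cannot be told apart.

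The summed levels of the cell type markers moved with some of these groups. The 8 neutrophil markers summed to 572 and 1812 CPM in the vehicle 4 h libraries and to 199 and 297 CPM with BT2 at 4 h, and 4 of the 8 were called lower with BT2 then. None of the 8 was at 0 in any library. The 6 lymphatic endothelial markers summed to 242 to 246 CPM in vehicle and 160 to 171 CPM with BT2 at 4 h, with 3 of 6 called lower and 1 higher. The sums of the 10 cardiomyocyte markers overlapped between the groups at 4 h, at 75620 to 88880 CPM in vehicle and 83540 to 85490 CPM with BT2. The part of these marker differences in the results for Pgf, Angpt2, Apln and Vegfc was not tested.

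Vegfa, the main ligand of Kdr, took a different course. It was at 1240 and 1250 CPM in vehicle at 4 h, 1020 and 1120 CPM with BT2 at 4 h, 559 and 580 CPM in vehicle at 24 h, and 953 and 727 CPM with BT2 at 24 h. The BT2 libraries lay below vehicle at 4 h and above it at 24 h, with no overlap at either time. The 4 h difference was not called (-0.22 ± 0.14, edgeR adjusted p = 0.312). At 24 h Vegfa was called higher with BT2 (0.56 ± 0.14, edgeR adjusted p = 0.0157), and this call was lost without vehicle 24 h replicate 1, without vehicle 24 h replicate 2 and without BT2 24 h replicate 1, where the adjusted p reached up to 0.102. In vehicle, Vegfa fell 2.18-fold from 4 h to 24 h (-1.13 ± 0.14, edgeR adjusted p = 0.000526), while with BT2 the difference between the times was not called (-0.34 ± 0.14, edgeR adjusted p = 0.111), except without BT2 24 h replicate 1 (-0.55, edgeR adjusted p = 0.0391).

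Cardiomyocyte markers followed the same order as Vegfa at 24 h. They summed to 27590 and 28270 CPM in the vehicle 24 h libraries and to 47930 and 61640 CPM with BT2 at 24 h, and 9 of the 10 were called higher with BT2. In vehicle, 9 of the 10 were called lower at 24 h than at 4 h. None of the 10 was at 0 in any library, and their part in the Vegfa result was not tested.

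Vegfc, a ligand of the lymphatic receptor Flt4 that also binds Kdr, was at 11.3 and 10 CPM in vehicle at 4 h, 4.36 and 6.04 CPM with BT2 at 4 h, 9.51 and 13.5 CPM in vehicle at 24 h, and 13.1 and 9.26 CPM with BT2 at 24 h. The 2 BT2 4 h libraries were the lowest of the 8, and the 24 h groups overlapped. At 4 h Vegfc was called lower with BT2 (-1.02 ± 0.27, edgeR adjusted p = 0.0394), but the call was lost in each of the 4 fits that left out 1 library of that time and in the 4 h libraries alone, with adjusted p-values up to 0.144. At 24 h the difference was -0.04 ± 0.25 (edgeR adjusted p = 0.914). With BT2 Vegfc rose 2.13-fold from 4 h to 24 h (1.09 ± 0.26, edgeR adjusted p = 0.0228), a call lost without BT2 4 h replicate 1 and without BT2 24 h replicate 1. In vehicle it was not called between the times (0.11 ± 0.25, edgeR adjusted p = 0.749).

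The promoters of 6 of the 10 genes were in RefSeq's table of gene starts (build GRCr8, whose coordinates are not those of the Rnor_6.0 build of the counts), with 2 starts for Vegfa. The 250 bases before the start are printed below for Pgf, Apln and Vegfc, the ligands called lower at 4 h that had an entry, and for the first start of Vegfa, which was not called at that time. Each is 5′ to 3′ on the strand of the gene, and capitals mark GGGCGG, the GC box, or its reverse complement.
Pgf, chr6:110557748-110557997, minus strand: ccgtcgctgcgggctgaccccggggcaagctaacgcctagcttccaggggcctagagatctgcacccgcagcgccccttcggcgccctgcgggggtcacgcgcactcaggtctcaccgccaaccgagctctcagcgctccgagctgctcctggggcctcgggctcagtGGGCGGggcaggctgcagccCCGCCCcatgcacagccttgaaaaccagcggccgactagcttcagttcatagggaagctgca
Apln, chrX:132091247-132091496, minus strand: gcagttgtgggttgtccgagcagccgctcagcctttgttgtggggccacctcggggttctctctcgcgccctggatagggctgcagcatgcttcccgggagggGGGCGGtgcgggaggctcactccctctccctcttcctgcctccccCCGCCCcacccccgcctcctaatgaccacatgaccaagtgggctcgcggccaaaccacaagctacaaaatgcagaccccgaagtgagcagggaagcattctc
Vegfc, chr16:44560888-44561137, minus strand: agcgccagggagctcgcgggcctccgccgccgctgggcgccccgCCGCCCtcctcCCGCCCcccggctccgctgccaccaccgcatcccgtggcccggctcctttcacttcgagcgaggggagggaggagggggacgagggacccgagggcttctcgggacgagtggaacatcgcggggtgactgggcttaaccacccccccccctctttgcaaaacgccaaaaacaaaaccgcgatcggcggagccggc
Vegfa, chr9:22452604-22452853, plus strand: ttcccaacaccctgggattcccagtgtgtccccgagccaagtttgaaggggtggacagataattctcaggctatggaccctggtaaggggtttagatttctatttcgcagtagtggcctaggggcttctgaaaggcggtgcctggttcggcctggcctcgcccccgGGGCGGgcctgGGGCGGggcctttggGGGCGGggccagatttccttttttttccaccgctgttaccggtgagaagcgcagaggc

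The windows of Pgf, Apln and Vegfc held 2 GC boxes each, and the first Vegfa window held 3, counting both strands. Flt1 held 3, Kdr held 1 and the second Vegfa window held 0. Over all 33469 promoter windows of the same length in the table, 30.5% held at least 1. The windows of the printed genes were rich in G and C, with 69.2% for Pgf, 64.8% for Apln, 72.4% for Vegfc and 60.4% for Vegfa, beside a median of 51.2% over all windows. Neither ACGTG, the core of the hypoxia response element, nor TGANTCA, an AP-1 site, nor TGTTTAC, a forkhead site, occurred on either strand of the 7 windows. Those motifs were found in 16.6%, 6.34% and 3.21% of all windows. GCGNGGGCG, an EGR site, was present only in Flt1 among the 7 windows, with 2 matches that can overlap GC boxes, and in 4.29% of all windows. A match is a description of the letters, and the absence of one concerns only these 250 bases.

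Flt1 and Kdr, the VEGF receptors, were not called between BT2 and vehicle at either time. Flt1 was at 470 and 441 CPM in vehicle at 4 h, 458 and 494 CPM with BT2 at 4 h, 268 and 229 CPM in vehicle at 24 h, and 245 and 252 CPM with BT2 at 24 h. BT2 and vehicle overlapped at both times, whereas every 24 h library lay below every 4 h library. The BT2 difference was 0.06 ± 0.11 at 4 h (edgeR adjusted p = 0.732) and 0 ± 0.11 at 24 h (edgeR adjusted p = 0.994). Flt1 fell 1.83-fold between the times in vehicle (-0.87 ± 0.11, edgeR adjusted p = 0.000529) and 1.91-fold with BT2 (-0.94 ± 0.11, edgeR adjusted p = 0.0029). Gene counts do not separate the soluble form of Flt1, the ligand trap, from the membrane receptor.

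Kdr was at 250 and 208 CPM in vehicle at 4 h, 170 and 180 CPM with BT2 at 4 h, 150 and 128 CPM in vehicle at 24 h, and 166 and 171 CPM with BT2 at 24 h. The BT2 libraries lay below vehicle at 4 h and above it at 24 h, as for Vegfa, and neither difference was called. The log2 values were -0.39 ± 0.12 at 4 h (edgeR adjusted p = 0.0675) and 0.28 ± 0.12 at 24 h (edgeR adjusted p = 0.108). With no filter on low counts Kdr was called at 4 h (-0.38, edgeR adjusted p = 0.0406). From 4 h to 24 h Kdr fell 1.64-fold in vehicle (-0.72 ± 0.12, edgeR adjusted p = 0.0022), and with BT2 the difference was -0.05 ± 0.12 (edgeR adjusted p = 0.783). The 14 endothelial markers summed to 2835 and 3506 CPM in vehicle at 4 h, 3206 and 3221 CPM with BT2 at 4 h, 1734 and 2030 CPM in vehicle at 24 h, and 2978 and 3010 CPM with BT2 at 24 h. At 24 h 8 of the 14 were called higher with BT2, none was at 0 in any library, and their part in the receptor values was not tested.

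Angpt1, the Tek agonist, was the only one of the 10 genes called in the same direction at both times. It was at 16 and 15.4 CPM in vehicle at 4 h, 31.1 and 26 CPM with BT2 at 4 h, 15 and 22.6 CPM in vehicle at 24 h, and 60.9 and 56.7 CPM with BT2 at 24 h. The 2 BT2 groups lay above vehicle at their own time without overlap, and the BT2 24 h libraries were the highest of the 8. At 24 h Angpt1 rose 3.13-fold with BT2 (1.65 ± 0.19, edgeR adjusted p = 0.000924), called in all 10 alternatives with log2 fold changes from 1.37 to 1.97. At 4 h it was 1.82-fold higher (0.86 ± 0.20, edgeR adjusted p = 0.0259), a call that was lost in each of the 4 fits without vehicle 4 h replicate 1 or 2 or BT2 4 h replicate 1 or 2, with adjusted p-values up to 0.134. From 4 h to 24 h it rose 2.06-fold with BT2 (1.04 ± 0.19, edgeR adjusted p = 0.00897) and was not called in vehicle (0.26 ± 0.20, edgeR adjusted p = 0.305), except without vehicle 24 h replicate 1 (0.54, edgeR adjusted p = 0.0406). The 8 pericyte markers summed to 702 to 737 CPM in vehicle and 938 to 1029 CPM with BT2 at 24 h, with 4 of 8 called higher and none at 0, and the cardiomyocyte marker sums given for Vegfa differed in the same direction. The 10 fibroblast markers summed to 3883 to 4305 CPM in vehicle and 6116 to 6824 CPM with BT2 at 24 h. Of the 9 tested, 4 were called higher and 1 lower. Col1a2 was at 0 in every tissue library except BT2 24 h replicate 1. The part of these markers in the Angpt1 result was not tested.

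Angpt2, the context-dependent antagonist of Tek, moved the other way at 4 h. It was at 66.1 and 55.8 CPM in vehicle at 4 h, 34.3 and 20.4 CPM with BT2 at 4 h, 12.9 and 10.9 CPM in vehicle at 24 h, and 8.45 and 14.4 CPM with BT2 at 24 h. The groups were apart at 4 h and overlapped at 24 h. At 4 h Angpt2 fell 2.24-fold with BT2 (-1.16 ± 0.30, edgeR adjusted p = 0.0382). The call was lost without vehicle 4 h replicate 1, without vehicle 4 h replicate 2, without BT2 4 h replicate 2, with no filter on low counts, and in a fit of the 4 h libraries alone, with adjusted p-values up to 0.169. At 24 h the difference was -0.06 ± 0.31 (edgeR adjusted p = 0.898). Between the times Angpt2 fell 5.11-fold in vehicle (-2.35 ± 0.31, edgeR adjusted p = 0.000813) and 2.37-fold with BT2 (-1.24 ± 0.31, edgeR adjusted p = 0.027), the latter lost with no filter on low counts and without BT2 4 h replicate 1 or BT2 24 h replicate 1.

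Tek itself, the angiopoietin receptor, was not called in any of the 5 contrasts. It was at 120 and 80.2 CPM in vehicle at 4 h, 134 and 111 CPM with BT2 at 4 h, 115 and 112 CPM in vehicle at 24 h, and 139 and 144 CPM with BT2 at 24 h. The BT2 libraries lay above vehicle at 24 h and overlapped with it at 4 h. The BT2 difference was 0.30 ± 0.18 at 4 h (edgeR adjusted p = 0.279) and 0.32 ± 0.18 at 24 h (edgeR adjusted p = 0.186). In a fit of the 4 libraries of 24 h alone, the 24 h value was 0.34 with an edgeR adjusted p of 0.0174. Without vehicle 4 h replicate 1 Tek was called higher with BT2 at 4 h (0.62, edgeR adjusted p = 0.0243) and higher at 24 h than at 4 h in vehicle (0.51, edgeR adjusted p = 0.0216), beside 0.19 ± 0.18 in vehicle and 0.21 ± 0.18 with BT2 in the main fit.

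Apln, the gene of the peptide apelin, was at 52 and 28 CPM in vehicle at 4 h, 21.9 and 16.5 CPM with BT2 at 4 h, 15.7 and 19 CPM in vehicle at 24 h, and 10.4 and 12.4 CPM with BT2 at 24 h. Both BT2 libraries lay below both vehicle libraries at each time, and the 2 vehicle 4 h libraries lay far from each other. At 4 h Apln was called lower with BT2 (-1.06 ± 0.29, edgeR adjusted p = 0.045). This call sat at the threshold and was lost without vehicle 4 h replicate 1, BT2 4 h replicate 1 or BT2 4 h replicate 2, with upper quartile scaling, with no filter and in the 4 h libraries alone. At 24 h the difference was -0.61 ± 0.29 (edgeR adjusted p = 0.132), and in the fit of the 24 h libraries alone it was -0.58 with an edgeR adjusted p of 0.0285. Between the times Apln fell 2.29-fold in vehicle (-1.20 ± 0.29, edgeR adjusted p = 0.0108), a call lost without vehicle 24 h replicate 1 (adjusted p = 0.0684), and was not called with BT2 (-0.75 ± 0.29, edgeR adjusted p = 0.102; -0.77 and 0.0388 with DESeq2).

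Aplnr, the apelin receptor, followed time and not treatment in these calls. It was at 25.3 and 18.8 CPM in vehicle at 4 h, 22.6 and 27.8 CPM with BT2 at 4 h, 57.5 and 92.6 CPM in vehicle at 24 h, and 95.5 and 74.3 CPM with BT2 at 24 h. All 4 libraries of 24 h lay above all 4 of 4 h, and BT2 and vehicle overlapped at both times. Aplnr rose 3.42-fold between the times in vehicle (1.77 ± 0.27, edgeR adjusted p = 0.00141) and 3.36-fold with BT2 (1.75 ± 0.26, edgeR adjusted p = 0.00593). The BT2 differences were 0.21 ± 0.27 at 4 h (edgeR adjusted p = 0.638) and 0.18 ± 0.25 at 24 h (edgeR adjusted p = 0.598).

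Read along time, 7 of the 10 genes were called in vehicle, 6 lower at 24 h and 1 higher, where 23.8% of all genes were lower and 23.3% higher. The 6 were Pgf, Angpt2, Apln, Vegfa, Flt1 and Kdr, and the 1 was Aplnr. With BT2, 3 were called lower (Pgf, Angpt2, Flt1) and 3 higher (Vegfc, Angpt1, Aplnr), where 11.6% of all genes were lower and 11.7% higher. The median log2 change of the 10 genes between the times was -0.79 in vehicle and -0.20 with BT2, beside 0.01 and 0.02 for all genes. Upper quartile scaling moved the median of all genes to 0.12 in vehicle and 0.11 with BT2, and under it 4307 genes were higher and 3018 lower in vehicle, beside 3545 and 3617 in the main fit. The corresponding counts with BT2 were 2296 and 1265, beside 1782 and 1766.

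The test of whether the effect of BT2 differed between 4 h and 24 h called 0 of the 10 genes by edgeR. Of all genes tested, edgeR called 4.72% higher and 2.43% lower. An unadjusted edgeR p under 0.05 was found for 6 of the 10, beside 3936 of the 15216 genes. DESeq2 called 3 of the 10 higher, beside 974 higher and 596 lower of the 22074 genes in its fit. The values closest to the threshold were 0.78 ± 0.20 for Vegfa (edgeR adjusted p = 0.0545), 0.66 ± 0.18 for Kdr (edgeR adjusted p = 0.0579) and 1.74 ± 0.46 for Pgf (edgeR adjusted p = 0.0625). DESeq2 gave adjusted p-values of 0.00671 for Vegfa, 0.0228 for Kdr and 0.00123 for Pgf. With no filter on low counts edgeR called Vegfa, Kdr and Angpt1. Without BT2 24 h replicate 2 Vegfa was called (0.96, edgeR adjusted p = 0.0298). The other values were 0.98 ± 0.37 for Vegfc, 1.11 ± 0.43 for Angpt2 and 0.78 ± 0.27 for Angpt1, and those of Apln, Tek, Aplnr and Flt1 lay between -0.06 and 0.45.

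Around these 10 genes, 62 other genes of the pathways were tested. They came from lists of ligands, co-receptors, signal transducers, tip-cell and VEGF-induced genes, upstream regulators of Vegfa, and ligand traps with antiangiogenic factors. These lists were also chosen with earlier results of these data known. The list of ligand traps with antiangiogenic factors is mixed. It also holds Cyr61, Ctgf, Vash2 and Sema3c, so its counts are not counts of inhibitors of vessel growth alone. At 4 h, 18 of the 62 were called lower with BT2 and 1 higher, with a median of -0.30, and the shares of all genes are those given above. The 6 lower genes with the smallest p were Ctgf (-2.54 ± 0.28), a matricellular protein that binds VEGF, Sema3f (-0.97 ± 0.12), a semaphorin that acts through Nrp2, Thbs1 (-1.77 ± 0.23), the antiangiogenic thrombospondin-1, Dll4 (-0.83 ± 0.14), the Notch ligand of tip cells, Itgb3 (-1.36 ± 0.23), an integrin subunit, and Nrp2 (-0.78 ± 0.14), a VEGF co-receptor. Their edgeR adjusted p-values lay between 0.00919 and 0.0134. The 1 higher gene was Arrb1 (0.42 ± 0.11, edgeR adjusted p = 0.0387), an arrestin that couples to receptors such as Aplnr. By list, 6 of 12 tip-cell and VEGF-induced genes, 4 of 10 ligand traps and antiangiogenic factors, 4 of 18 transducers, 2 of 9 co-receptors, 1 of 4 other ligands and 1 of 9 upstream regulators were lower. The count of 19 became 8 in the 4 h libraries alone, where the count of all genes called went from 2495 to 621. It also fell in each fit that left out 1 library of that time. The count of all genes fell in these fits too, except without vehicle 4 h replicate 1.

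At 24 h, 10 of the 62 were called higher and 15 lower with BT2, with a median of -0.16, where 18.9% of all genes were higher and 20.7% lower. Those counts are near the shares over all genes. The 6 higher genes with the smallest p were Egln1 (0.92 ± 0.11) and Egln3 (0.61 ± 0.15), prolyl hydroxylases that mark HIF for degradation, Vegfb (0.74 ± 0.14), a ligand of Flt1, Plcg1 (0.68 ± 0.12) and Grb14 (0.61 ± 0.12), which bind activated receptors, and Sema3a (0.71 ± 0.16), a semaphorin that binds Nrp1. Their edgeR adjusted p-values lay between 0.00109 and 0.013. The 6 lower genes were Dok2 (-1.50 ± 0.15) and Shc1 (-0.72 ± 0.10), adaptor proteins, Thbs1 (-2.25 ± 0.24), Sema3f (-0.97 ± 0.11), Ctgf (-2.53 ± 0.28) and Plau (-2.14 ± 0.27), the urokinase gene, with edgeR adjusted p-values from 0.000669 to 0.00146. The 11 macrophage and monocyte markers summed to 317 to 369 CPM in vehicle at 4 h, 369 to 456 CPM with BT2 at 4 h, 2158 to 2643 CPM in vehicle at 24 h and 824 to 965 CPM with BT2 at 24 h. At 24 h 6 of the 11 were called lower with BT2 and 1 higher, 9 of the 11 were called higher at 24 h than at 4 h in vehicle, and none was at 0 in any library. Dok2, at 63.1 and 70.3 CPM in vehicle and 21.7 and 25.6 CPM with BT2 at 24 h, and Plau, at 39.9 and 45.2 CPM in vehicle and 6.51 and 12.7 CPM with BT2, differed in the same direction as those sums, whose part in them was not tested. Among the upstream regulators of Vegfa 4 of 9 were higher and 1 lower. In the mixed list of ligand traps and antiangiogenic factors 5 of 10 were lower and 1 higher.

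Thbs1 was at 3390 and 3090 CPM in vehicle at 4 h, 1130 and 767 CPM with BT2 at 4 h, 664 and 521 CPM in vehicle at 24 h, and 105 and 144 CPM with BT2 at 24 h. The 4 groups did not overlap, and BT2 was below vehicle at both times. Egln1 was at 118 and 108 CPM in vehicle at 4 h, 124 and 115 CPM with BT2 at 4 h, 58.4 and 54.6 CPM in vehicle at 24 h, and 116 and 97.6 CPM with BT2 at 24 h. Only the 2 vehicle 24 h libraries stood apart, at the low end of the 8.

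Between the times in vehicle, 15 of the 62 were higher at 24 h and 27 lower, with a median of -0.26, beside 23.3% and 23.8% of all genes. The higher genes with the smallest p were Arrb1 (1.99), Dok2 (1.93), Arrb2 (1.47), Figf (2.2), which is Vegfd, Plau (2.01) and Shc1 (0.69), all with edgeR adjusted p-values of 0.000883 or lower. The lower ones were Epas1 (-1.31), which encodes HIF-2 alpha, Ptprb (-1.70), the phosphatase that restrains Tek, Thbs1 (-2.45), Vegfb (-1.42), Foxo1 (-1.51), a transcription factor held in check by Tek signalling, and Rcan1 (-2.21), a calcineurin inhibitor that VEGF induces, with edgeR adjusted p-values of 0.000302 or lower. With BT2, 15 were higher and 14 lower between the times, with a median of -0.10, beside 11.7% and 11.6% of all genes. Arrb1 (1.07), Dok2 (1.37), Plxnd1 (1.04), Arrb2 (0.96), Nrp2 (0.75) and Figf (1.46) led the higher genes, with edgeR adjusted p-values of 0.0114 or lower. Thbs1 (-2.93), Ptprb (-1.42), Epas1 (-0.89), Rcan1 (-1.68), Ctgf (-1.78) and Vegfb (-0.87) led the lower ones, with edgeR adjusted p-values of 0.00696 or lower. The count of 29 with BT2 fell without BT2 4 h replicate 1 and without BT2 24 h replicate 2, as did the count of all genes.

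**Figure D3:**
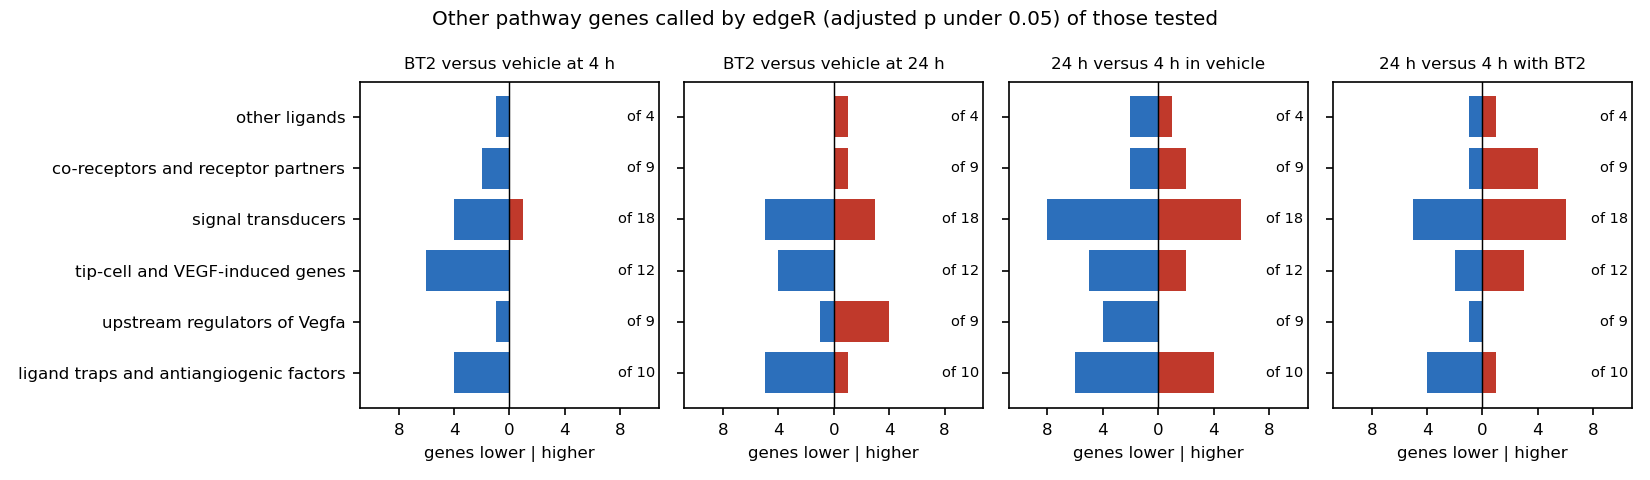
Number of other pathway genes called lower and higher in each of 6 lists, for the 2 contrasts of BT2 against vehicle and the 2 contrasts of 24 h against 4 h, at an edgeR adjusted p under 0.05. At 4 h, 18 of the 19 called genes were lower with BT2; at 24 h, 10 were higher and 15 lower.

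The nuclear libraries place the 10 genes in cell classes at 24 h. After filtering, 11372 of 11540 barcodes (median 2465 UMIs) were kept in the vehicle library and 10324 of 10497 (median 2157 UMIs) in the BT2 library, where a UMI marks 1 captured RNA molecule. The 2 libraries shared 37 barcodes. Clustering without the 10 genes and the other pathway genes gave 21 clusters, of which 15 were named from markers as X-like, with 1 of the leading genes in brackets where a name occurs more than once, and 17 held at least 100 nuclei in each library. Doublets were not removed, because the caller marked only 1 nucleus in all; the unnamed clusters led by Adgrl3 and LOC108351237 had the highest median doublet scores of the 17, at 0.135 and 0.12. With 1 library per group nothing here is tested. Levels are CPM from UMI counts, and the 95% intervals on levels (Poisson) and on ratios (conditional, exact) cover counting error only.

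**Figure D4:**
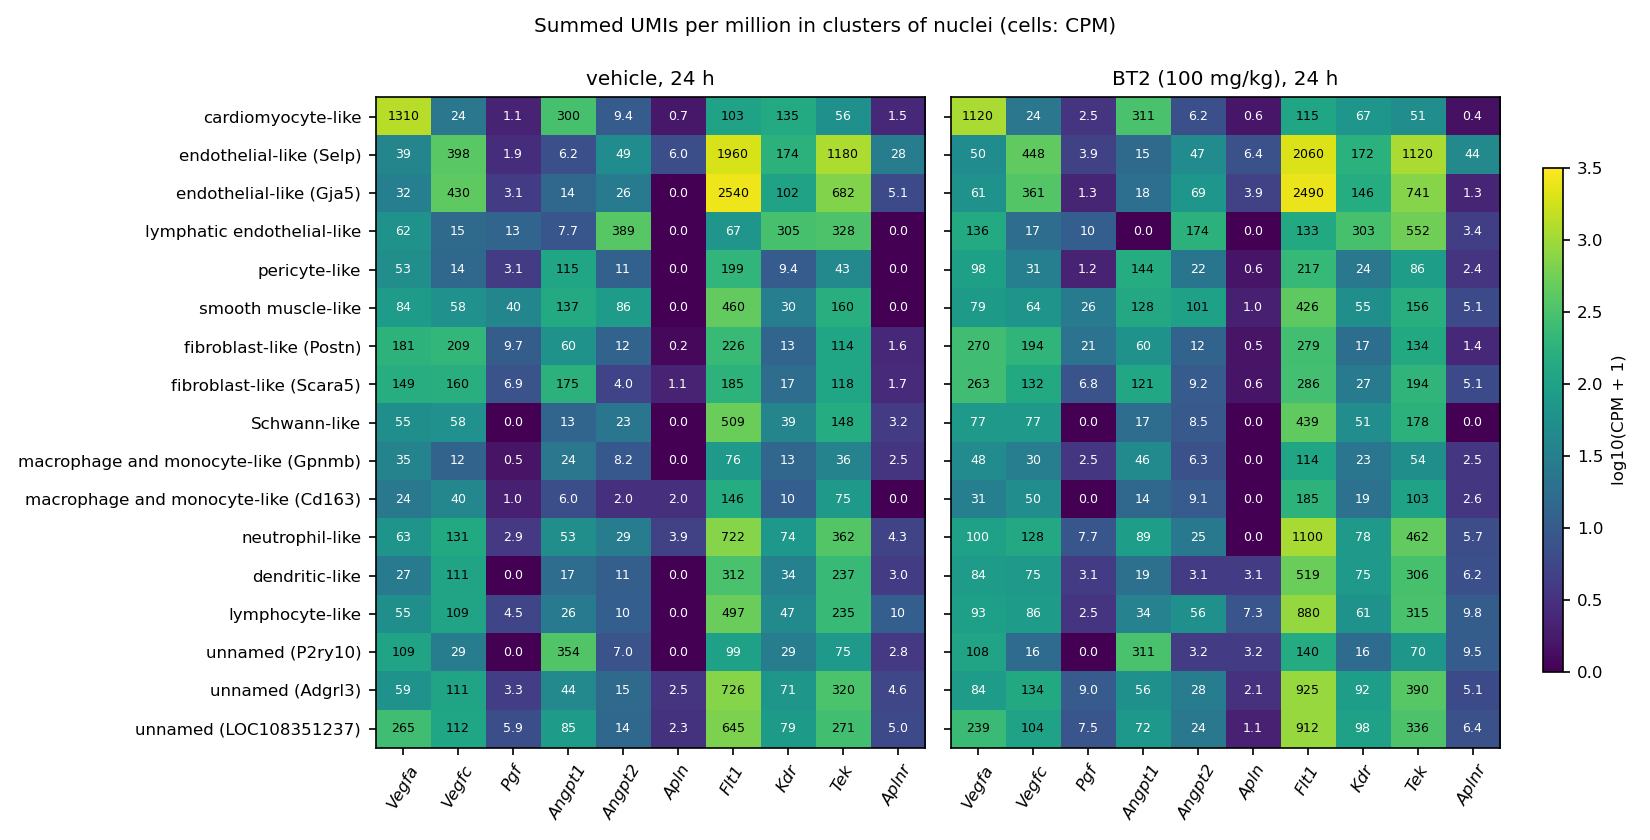
Level of each of the 10 genes, in CPM, in the 17 clusters with at least 100 nuclei in each library, for the vehicle and the BT2 library at 24 h. Vegfa is highest in cardiomyocyte-like nuclei (1310 and 1120 CPM), Flt1 in endothelial-like (Gja5) nuclei (2540 and 2490 CPM) and Angpt2 and Kdr in lymphatic endothelial-like nuclei.

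Vegfa was highest in cardiomyocyte-like nuclei in both libraries, at 1310 CPM in vehicle and 1120 CPM with BT2, a ratio of BT2 to vehicle of 0.853 (95% interval 0.824 to 0.883). The next levels in vehicle were 265 CPM in the unnamed cluster led by LOC108351237, 181 CPM in fibroblast-like (Postn) nuclei and 149 CPM in fibroblast-like (Scara5) nuclei. Of the 17 clusters, 11 had a ratio whose interval lay above 1, only the cardiomyocyte-like cluster had one below 1, and 5 had intervals that held 1. Among the 11, the values were 270 CPM and a ratio of 1.49 (1.38 to 1.62) in Postn, 263 CPM and 1.77 (1.54 to 2.04) in Scara5, and 52.8 against 97.7 CPM and 1.85 (1.41 to 2.43) in pericyte-like nuclei. The 4 endothelial-like, lymphatic and dendritic-like values were 1.29 in Selp, 1.91 in Gja5, 2.22 in lymphatic endothelial-like and 3.08 in dendritic-like nuclei. In lymphatic endothelial-like nuclei the ratio rested on 24 UMIs in vehicle and 40 with BT2 (61.5 and 136 CPM, 1.3 to 3.84). In dendritic-like nuclei it rested on 18 and 27 UMIs (27.4 and 84.4 CPM, 1.64 to 5.94). The part of free RNA and doublets in the Vegfa counts outside cardiomyocyte-like nuclei was not tested. Cardiomyocyte-like nuclei were 7.31% of nuclei and gave 65.0% of the Vegfa UMIs in vehicle, and were 8.51% of nuclei and gave 55.7% of them with BT2. The Postn cluster gave 7.53% in vehicle and 21.5% with BT2, from 9.64% and 14.7% of the nuclei. Over all nuclei Vegfa was at 273 CPM in vehicle and 300 CPM with BT2, a ratio of 1.1 (1.07 to 1.13).

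Vegfc was highest in the 2 endothelial-like clusters. It was at 430 CPM in Gja5 and 398 CPM in Selp nuclei in vehicle, whose intervals overlapped, and at 361 and 448 CPM with BT2. The ratio was 1.13 (1.05 to 1.20) in Selp and 0.84 (0.719 to 0.979) in Gja5 nuclei. Fibroblast-like (Postn) nuclei followed at 209 and 194 CPM, and cardiomyocyte-like nuclei had 23.5 and 23.8 CPM. Pgf was sparse, with 188 UMIs in vehicle and 293 with BT2 in all nuclei (4.17 and 9.05 CPM, ratio 2.17, 1.80 to 2.62), so its ratio in nuclei lay above 1 while its tissue libraries at 24 h lay lower with BT2. Smooth muscle-like nuclei had its highest level, 39.5 CPM from 17 UMIs in vehicle and 26.5 CPM from 26 UMIs with BT2 (ratio 0.67, 0.35 to 1.32). Fibroblast-like (Postn) nuclei had the most UMIs, 50 in vehicle and 161 with BT2, which is 9.73 and 20.8 CPM (ratio 2.14, 1.55 to 3.0).

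Flt1 was highest in endothelial-like nuclei, at 2540 and 2490 CPM in Gja5 and 1960 and 2060 CPM in Selp, in vehicle and BT2. It was counted in all 17 clusters, at 722 and 1100 CPM in neutrophil-like and 103 and 115 CPM in cardiomyocyte-like nuclei. In the vehicle library a Flt1 UMI was found in 1610 of 1815 Selp nuclei, 526 of 1179 neutrophil-like nuclei and 211 of 831 cardiomyocyte-like nuclei. The part of free RNA and doublets in the counts outside endothelium was not tested. Its ratio had an interval above 1 in 10 of the 17 clusters and below 1 in 0, and over all nuclei it was 1.0 (0.983 to 1.02).

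Kdr had a different order, with lymphatic endothelial-like nuclei first at 305 CPM in vehicle and 303 CPM with BT2, then Selp at 174 and 172 CPM. In vehicle, cardiomyocyte-like nuclei came next at 135 CPM (824 UMIs), apart from Gja5 at 102 CPM. With BT2 the cardiomyocyte-like level was 67.3 CPM (325 UMIs), a ratio of 0.498 (0.436 to 0.566), the only one of 17 with an interval below 1, whereas 6 clusters had intervals above 1, among them Gja5 at 1.44 (1.09 to 1.90). The cardiomyocyte-like ratio of Kdr was not recomputed with other clusterings or without the highest doublet scores. The part of free RNA and doublets in the Kdr counts outside endothelium was not tested. The Selp ratio was 0.989 (0.89 to 1.1). Over all nuclei Kdr was at 77.4 and 63.7 CPM (ratio 0.823, 0.779 to 0.869), lower in the BT2 library, while its 2 tissue libraries with BT2 at 24 h lay above vehicle.

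**Figure D5:**
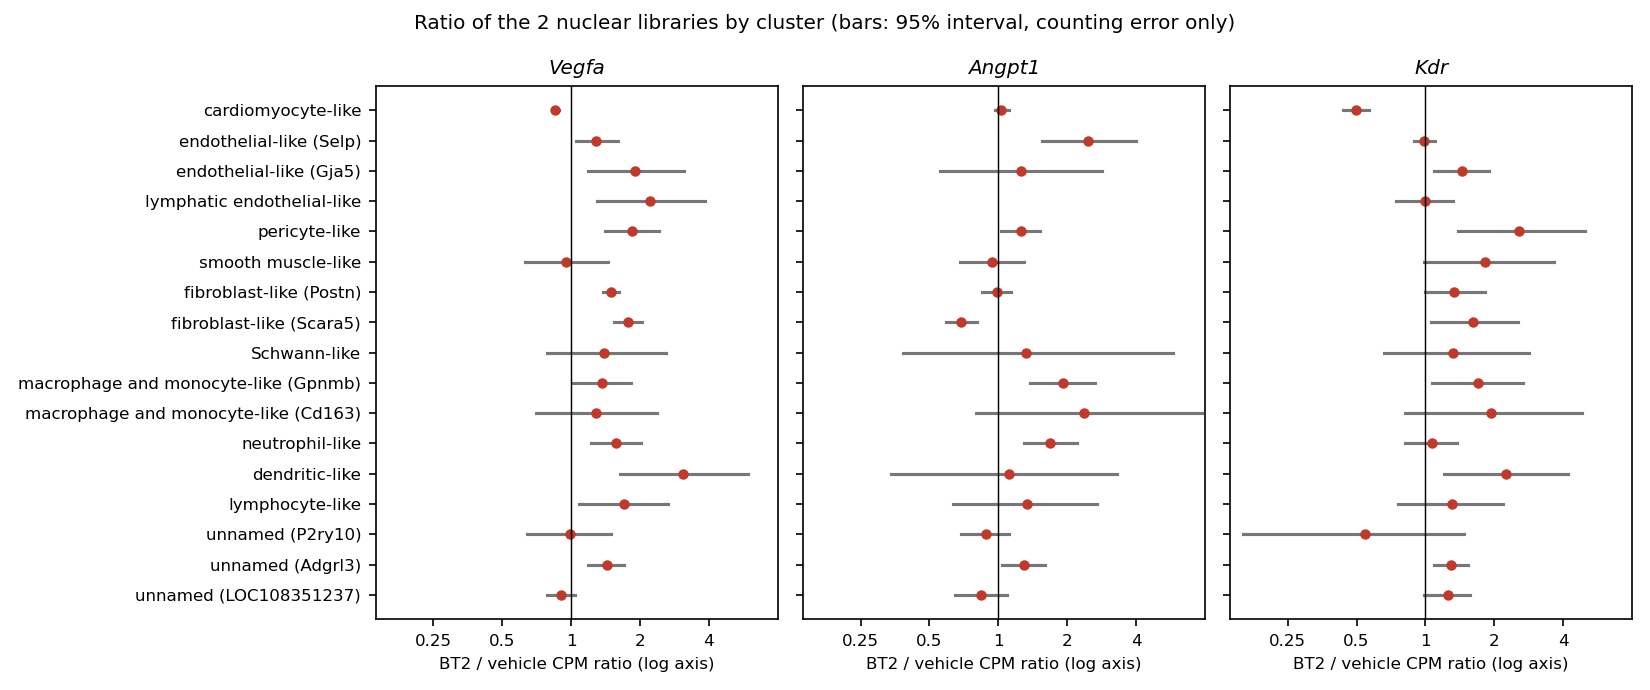
Ratio of BT2 to vehicle level of Vegfa, Angpt1 and Kdr in each cluster of nuclei at 24 h, on a log axis, with exact conditional 95% intervals that cover counting error only. In cardiomyocyte-like nuclei the ratio is 0.853 for Vegfa, 1.03 for Angpt1 and 0.498 for Kdr.

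Angpt1, which rose in the tissue at 24 h, was highest in the unnamed cluster led by P2ry10 (354 CPM in vehicle and 311 CPM with BT2) and in cardiomyocyte-like nuclei (300 and 311 CPM), with overlapping intervals. The cardiomyocyte-like ratio was 1.03 (0.965 to 1.11), beside a fold of 3.13 in tissue. Pericyte-like nuclei were at 115 and 144 CPM (ratio 1.26, 1.03 to 1.53) and fibroblast-like (Scara5) nuclei, which were 4.4% of nuclei in vehicle and 14.5% with BT2, at 175 and 121 CPM (ratio 0.69, 0.593 to 0.804). Of 16 clusters with a ratio, 5 had intervals above 1 and 1, Scara5, below 1. Endothelial-like (Selp) nuclei were near the bottom of the order, at 6.19 and 15.3 CPM. Cardiomyocyte-like nuclei gave 44.1% of the Angpt1 UMIs in vehicle and 44.8% with BT2. Over all nuclei Angpt1 was at 92 and 103 CPM (ratio 1.12, 1.07 to 1.18). Nuclear and tissue libraries differ in the RNA they hold and in the dose stated, and this difference of ratio between them was not tested.

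Angpt2 was highest in lymphatic endothelial-like nuclei, at 389 CPM (152 UMIs) in vehicle and 174 CPM (51 UMIs) with BT2, a ratio of 0.446 (0.318 to 0.616). Smooth muscle-like nuclei followed in both libraries at 85.9 and 101 CPM. In vehicle Selp nuclei came next at 48.7 CPM. With BT2 Gja5 (68.6 CPM, from 25.7 CPM in vehicle, ratio 2.67, 1.63 to 4.49), lymphocyte-like (56.2 CPM, from 9 UMIs in vehicle and 23 with BT2, ratio 5.6, 2.5 to 13.8) and Selp nuclei (47.4 CPM) came next, with intervals that overlapped from each to the next. Tek was highest in Selp nuclei at 1180 and 1120 CPM (ratio 0.948, 0.911 to 0.988), then in Gja5 at 682 and 741 CPM, and was at 328 and 552 CPM in lymphatic endothelial-like nuclei (ratio 1.68, 1.33 to 2.14). Like Flt1 it was counted in all 17 clusters, at 362 and 462 CPM in neutrophil-like nuclei, whose median doublet score was 0.099. The Tek ratio had an interval above 1 in 9 of the 17 and below 1 in 1, Selp. The part of free RNA and doublets in the Angpt2 and Tek counts outside endothelium was not tested.

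The apelin pair was near the limit of detection in nuclei. Apln had 82 UMIs in vehicle and 49 with BT2 in all (1.82 and 1.51 CPM), of which 29 and 23 were in endothelial-like (Selp) nuclei (5.99 and 6.41 CPM). Aplnr was highest in the same cluster, at 28.5 CPM (138 UMIs) in vehicle and 44.0 CPM (158 UMIs) with BT2, a ratio of 1.55 (1.22 to 1.96). That cluster gave 51.5% of the Aplnr UMIs in vehicle and 65.6% with BT2, and Gja5 nuclei, the other large endothelial-like cluster, held 5 and 1.

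The genes whose levels over the 11 named classes in both libraries (22 points) were most like each of the 10 are given as a description, since the points share libraries and cell classes. For Tek they were Pecam1, Adgrl4 and Dnm3 (Pearson r of 0.97), for Flt1 Id1 (0.95), Vwf (0.95) and Meox2 (0.94), and for Kdr Rasgrp3 (0.94) and Dysf (0.91). Pecam1 and Vwf are endothelial markers. For Vegfa they were Cxadr (0.92), Myo19 (0.92) and Fhl2 (0.90), for Vegfc Mecom (0.92), Fap (0.92) and Cd34 (0.89), and for Angpt1 Me1 (0.85), Abtb2 (0.84) and Cox4i1 (0.83). For Angpt2 they were Hmgcll1 (0.90), Syne1 (0.89) and Tbxa2r (0.86), and for Aplnr Pdcd1lg2 (0.86), Trpv4 (0.85) and Tmem63c (0.82). For the sparse ligands they were Serping1 (0.84), Bmpr1b (0.77) and LOC103694103 (0.77) for Pgf and Zcchc16 (0.79), Galnt14 (0.78) and F2rl1 (0.74) for Apln.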

How the data were processed

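The authors deposited raw read counts per gene for the tissue libraries; per the submitters' processing notes, Trim Galore, STAR and featureCounts were used with Rnor_6.0. Their versions, the annotation, the strand setting and the counting of introns were not stated. The deposited nuclear matrices hold UMI counts per barcode, made with Cell Ranger 8.0.1 per the file headers. Each of the 8 tissue columns was matched to a sample by its label, and 0 columns were left unassigned.

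The members and gene lists were chosen with earlier results of these data known. Counts were analysed with edgeR 4.0.16 (R 4.3.3, limma 3.58.1): filterByExpr, TMM factors, a robust quasi-likelihood fit of all 8 libraries with 1 mean per group and 4 residual degrees of freedom, two-sided tests and Benjamini-Hochberg adjustment over 15216 genes, called under 0.05. The biological coefficient of variation was 14.3%. DESeq2 1.42.0, upper quartile factors, no filter, at least 1 CPM in 4 libraries, the replicate block, the 4 libraries of 1 time alone and each library left out were the alternatives. The tests were tested on simulated data. All 10 members are named in each contrast; of the other pathway genes, up to 6 per direction with the smallest p are named, and 3 most alike genes per member among those with at least 200 UMIs, of which 1 is not reported here. Of 75 list entries 1, Apela, had no match; Figf, Cyr61 and Ctgf stand for Vegfd, Ccn1 and Ccn2. Angpt4 was too low to test and Robo4 was listed at 0 in all 8 libraries.

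Nuclei (Python 3.11.15, scanpy 1.11.5, igraph 0.11.9, scipy 1.17.1) needed at least 500 UMIs, 200 genes and at most 5% mitochondrial UMIs. Clustering left out the 74 member and pathway genes and used 2000 variable genes, 30 principal components, 15 neighbours and Leiden resolution 0.5. Names needed a marker score of at least 0.9, a lead of 0.5, 3 markers and a median doublet score of at most 0.1, limits set after the clusters were seen. Ratios are given where both libraries together had at least 10 UMIs. PCR copies were collapsed by UMI, and all intervals cover counting error only.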

Additional observations from a re-analysis of the deposited data

Results flagged for a closer look

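In the edgeR test of whether the effect of BT2 differed between 4 h and 24 h, 7 of the 62 other pathway genes were called, 5 higher and 2 lower, beside 4.72% and 2.43% of all genes. The main fit called 0 of the 10 members, although alternatives called Vegfa, Kdr, Angpt1 or Pgf. The values are differences between the log2 effect of BT2 at 24 h and that at 4 h. Among the 5 with a higher effect at 24 h, Egln1, a HIF prolyl hydroxylase, changed by 0.83 (edgeR adjusted p = 0.0276), Dll4 by 1.0 (edgeR adjusted p = 0.0292), Sema3a by 1.09 (edgeR adjusted p = 0.0347), Egln3 by 0.91 (edgeR adjusted p = 0.0404) and Pdgfb, a growth factor that recruits pericytes, by 1.01 (edgeR adjusted p = 0.0489). Dll4 was at 92.6 and 72.8 CPM in vehicle at 4 h, 48.6 and 44.2 CPM with BT2 at 4 h, 39.8 and 40 CPM in vehicle at 24 h, and 48.7 and 40.9 CPM with BT2 at 24 h. Both BT2 libraries were below vehicle at 4 h, where Dll4 was called lower. At 24 h both were above vehicle by a narrow margin, 40.9 against 40 CPM at the nearest, and Dll4 was not called.

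The other 2 had a lower effect at 24 h: Arrb1 changed by -0.92 (edgeR adjusted p = 0.0215) and Sema3c, a semaphorin, by -0.88 (edgeR adjusted p = 0.0487). Arrb1 was at 39.7 and 34.7 CPM in vehicle at 4 h, 47.9 and 51.7 CPM with BT2 at 4 h, 139 and 156 CPM in vehicle at 24 h, and 101 and 108 CPM with BT2 at 24 h, so BT2 was above vehicle at 4 h and below it at 24 h. Without BT2 4 h replicate 2, vehicle 24 h replicate 1, vehicle 24 h replicate 2 or BT2 24 h replicate 1, 0 of the pathway genes were called in this test. The count also fell without vehicle 4 h replicate 2 and without BT2 4 h replicate 1. In each of these fits, fewer of all genes were called as well than in the main fit.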

How the results depend on the processing

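Several calls were lost when 1 library was left out, whereas Angpt1 at 24 h was called in all 10 alternatives. At 4 h the 5 member calls became 2 in the 4 h libraries alone and 0 to 2 when 1 library was left out; the pathway count of 19 became 8 and 2 to 14, and the 1015 higher and 1480 lower of all genes became 621 and 112 to 2796. Upper quartile scaling gave 1298 higher and 1244 lower genes at 4 h, beside 1015 and 1480. The 24 h libraries alone gave 3370 higher and 3425 lower of the 14943 genes tested, beside 2873 and 3143. For the change of the BT2 effect DESeq2 called 1570 of all genes, beside 1087. At 24 h the 2 member calls became 4 in the 24 h libraries alone and 1 to 2 with a library left out, and the 2873 higher and 3143 lower genes became 2982 to 4558. For the change of the BT2 effect, the 0 member calls became 3 with DESeq2, 3 with no filter and 0 to 1 with a library left out; the 7 pathway genes became 0 to 8 and the 1087 genes 1819 with no filter and 0 to 1443. Along time, leaving out a library gave 4629 to 6583 genes in vehicle (7162 in the main fit), and with BT2 1025 to 2046 genes (3548), 11 to 22 pathway genes (29) and 4 to 6 member calls (6).

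Same-numbered libraries deviated from their group means with correlations from -0.046 to 0.097, so the numbers were not taken to pair the samples. With the replicate block, 3 of the 10 members were called at 4 h (1 higher, 2 lower; not Apln or Vegfc), 1 in the change of the BT2 effect (Pgf, 1.79, edgeR adjusted p = 0.034), and 4 of the pathway genes in that change.

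Directions turned only for values that were not called. Flt1 at 24 h (0 in the main fit) was 0.04 with upper quartile scaling, 0.01 with at least 1 CPM in 4 libraries, 0 with the replicate block and 0.02 in the 24 h libraries alone. The change for Tek was -0.01 with upper quartile scaling, -0.01 with DESeq2 and 0 with no filter, and the Kdr change over time with BT2 was 0.04 with upper quartile scaling. With a library left out, the 24 h values were -0.49 to 0.26 for Angpt2, -0.11 to 0.11 for Flt1, -0.13 to 0.56 for Aplnr and -0.32 to 0.23 for Vegfc, and the 4 h value of Aplnr was 0 to 0.43. The change was -0.06 to 0.83 for Apln, -0.30 to 0.28 for Tek, -0.34 to 0.36 for Aplnr and -0.17 to 0.05 for Flt1. The course in vehicle was -0.07 to 0.51 for Tek, -0.16 to 0.34 for Vegfc and -0.06 to 0.54 for Angpt1. The cause of these shifts was not tested.

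In nuclei, only clusters that had a cell type name entered the check of where each member was highest. The named class with the highest level was the same for all 10 members at Leiden resolution 1.0. It was the same for 9 of them with at least 1000 UMIs per nucleus or without the 8% highest doublet scores. Angpt1 had its highest vehicle level, 354 CPM, in the unnamed cluster led by P2ry10, which had no part in this check. At resolution 1.0 the cardiomyocyte-like ratio was 0.924 for Vegfa and 1.14 for Angpt1. Both lay above the intervals of the main clustering, which were 0.824 to 0.883 and 0.965 to 1.11, so these ratios moved with the clustering. Pgf in smooth muscle-like nuclei had no value without the highest doublet scores.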
